A study of Mus musculus with 36 samples.

Results

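Chromatin accessibility was examined at 8 genes whose proteins sit on the dendritic cell surface and tune T cell activation: Cd80, Cd86, Icosl, Cd70, Cd40, Cd83, Cd274 and Pdcd1lg2. Every deposited peak that overlapped the span of 1 of these genes, or 10 kb to either side of it, was taken as a member. The peaks of these genes were taken by position alone, which gave 105 of the 119751 peaks: 25 at Cd86, 20 at Pdcd1lg2, 19 at Cd274, 14 at Cd80, 11 at Cd83, 9 at Cd40, 6 at Icosl and 1 at Cd70. Of these, 73 touched a gene's span, 32 lay in the flanks, and 22 also overlapped the span of another gene. All 105 passed the filter on low counts.

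The cells were bone marrow-derived dendritic cells, grown with GM-CSF from the bone marrow of female C57BL/6J mice aged 6 to 8 weeks. They received no ligand (Ctrl), 1 of 6 single ligands, 1 of 8 pairs or 1 of 3 triplets, for 6 h. Their labels, with the letter used for each, were LPS (L), PAM (P), SeV (S), HMW (H), zymosan depleted (Z) and 3',3'-cGAMP (cG). Pairs and triplets are written by joining these letters: PL, PH, LH, PS, PcG, ScG, ZS, ZcG, PLH, PScG and ZScG. The labels give no other allele or agent, and every group shared the GM-CSF culture. Each of the 18 groups had 2 libraries (36 in all). The labels do not say whether these came from separate cultures or animals, so the p-values measure only the spread between these samples, which may be technical.

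A naive T cell needs a signal from its antigen receptor and a costimulatory signal, given mainly when CD80 and CD86 on the dendritic cell engage CD28. This signal is held in check by CTLA-4, which competes for CD80 and CD86, and by PD-1, whose ligands are PD-L1 (the product of Cd274) and PD-L2 (Pdcd1lg2). Microbial ligands sensed by pattern recognition receptors drive dendritic cells to mature, and a rise of these surface proteins is a classical sign of that maturation. ATAC-seq, the assay used here, marks DNA that the Tn5 transposase can reach. It measures how open a stretch of chromatin is, not how much RNA or protein a gene makes. In bulk cells, a change in the share of cells that are open at a site and a change in each cell's openness cannot be told apart.

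The sequences just before the start sites are given first, since the start-site peaks of the genes behaved differently from one another. RefSeq (build GRCm38.p6) gave a promoter sequence for 4 of the 8 genes: Cd80, Cd274, Pdcd1lg2 and Icosl. The 250 bases that end at the base before the start site are printed 5′ to 3′ on the gene's strand, with motif matches in capitals.
Cd80, chr16:38458683-38458932, + strand: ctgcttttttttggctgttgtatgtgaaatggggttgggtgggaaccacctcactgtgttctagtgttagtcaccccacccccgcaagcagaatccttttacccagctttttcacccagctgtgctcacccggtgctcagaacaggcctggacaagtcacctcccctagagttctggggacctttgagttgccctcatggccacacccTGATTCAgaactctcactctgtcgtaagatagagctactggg
Cd274, chr19:29367188-29367437, + strand: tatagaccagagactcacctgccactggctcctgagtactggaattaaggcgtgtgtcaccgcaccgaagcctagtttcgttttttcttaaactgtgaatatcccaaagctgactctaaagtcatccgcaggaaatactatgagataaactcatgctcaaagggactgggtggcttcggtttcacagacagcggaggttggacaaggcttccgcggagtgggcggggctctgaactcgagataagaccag
Pdcd1lg2, chr19:29410669-29410918, + strand: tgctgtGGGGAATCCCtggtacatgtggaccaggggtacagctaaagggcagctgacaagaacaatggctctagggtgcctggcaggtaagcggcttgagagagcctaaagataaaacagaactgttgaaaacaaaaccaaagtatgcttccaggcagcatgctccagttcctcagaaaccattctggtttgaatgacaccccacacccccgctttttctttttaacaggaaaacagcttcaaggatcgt
Icosl, chr10:78069118-78069367, + strand: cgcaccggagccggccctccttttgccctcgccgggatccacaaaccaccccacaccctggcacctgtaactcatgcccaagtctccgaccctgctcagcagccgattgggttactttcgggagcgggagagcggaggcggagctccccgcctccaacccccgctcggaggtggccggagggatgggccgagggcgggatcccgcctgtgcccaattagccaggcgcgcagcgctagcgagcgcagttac
A set of 5 motifs of immune transcription factors were searched on both strands: kappaB, ISRE, GAS (TTCNNNGAA), AP-1 (TGANTCA) and PU.1 (GAGGAAGT). The Cd80 sequence held 1 AP-1 match, at bases 42 to 36 before the start, and 6.75% of 32851 RefSeq promoter windows of the same length held one. The Pdcd1lg2 sequence held 1 kappaB match, at bases 244 to 235 before the start, and 3.9% of the windows held one. None of the 5 motifs matched in the Cd274 or Icosl windows, where ISRE, GAS and PU.1 would be met in 2.98%, 7.02% and 2.44% of windows. These matches describe letters only. All 4 windows lay at least in part under a member peak, whose values follow gene by gene.

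Read totals ran from 19097027 to 39977088 counts in peaks per library, of which 44.1% to 63.1% fell in the single peak that spans the mitochondrial genome and were left out, leaving 8181254 to 21985891 nuclear counts. The mitochondrial share differed between groups: the mean was 61.0% ± 1.23 (SD, n = 2) for Ctrl, 61.7% ± 1.06 for Z, 58.3% ± 0.559 for ZScG, 59.4% ± 2.97 for ScG and 63.0% ± 0.156 for ZcG, and 44.4% ± 0.332 (L) to 54.5% ± 5.04 (ZS) in the other 13 groups. For those 13, this share and the ligand cannot be told apart in a comparison with Ctrl. The same holds where Z, ZcG, ScG or ZScG is compared with 1 of those 13. The part of nuclear counts lying in the 105 member peaks was 0.0350% and 0.0378% in the 2 Ctrl libraries and reached 0.0754% in a PcG library. Peaks at 9 dendritic and myeloid marker genes summed to 441 and 467 CPM (counts scaled to a common library size) in Ctrl and to 432 to 527 in stimulated libraries. Peaks at T cell genes summed to 15.7 and 19.3 CPM in Ctrl and to 8.57 to 22.0 in stimulated libraries. Peaks at neutrophil genes gave 20.1 and 23.9 in Ctrl and 10.3 to 24.9 in stimulated libraries, with the lowest group mean in ScG (11.8). For NK genes the sums were 21.3 and 22.2 in Ctrl and 12.5 to 25.1 with stimulation, lowest in ZScG (mean 14.9), and for erythroid genes 11.1 and 12.2, and 8.88 to 17 with stimulation. No peak lay at Cd8a, Ly6g, Elane, Ncr1 or Gata1. The part of these lists in the results was not tested.

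Most of the member peaks that changed opened. Against Ctrl, 58 of 105 (55.2%) rose in at least 1 of the 17 stimulations, and 35% of all 119464 tested peaks did. Only 19 (18.1%) fell in any stimulation, against 34.1% of all tested peaks. Both directions were seen at 2 members (1.9%) and at 2.46% of all tested peaks. Another 30 (28.6%) were never called by edgeR, and 33.4% of all tested peaks were not. Of these 30, 16 reached an unadjusted p under 0.05 in at least 1 stimulation. These shares are near those of all peaks and are not read as results about the members. Peaks that rose in all 17 stimulations made up 4 of the members (3.81%) and 1.03% of all tested peaks: 1 each at Cd40, Cd83, Cd274 and Pdcd1lg2. A peak is called here when edgeR's quasi-likelihood test gave a Benjamini-Hochberg adjusted p under 0.05 over all tested peaks of that comparison. All 17 comparisons share the same 2 Ctrl libraries, so their counts are not independent of one another.

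**Figure D1:**
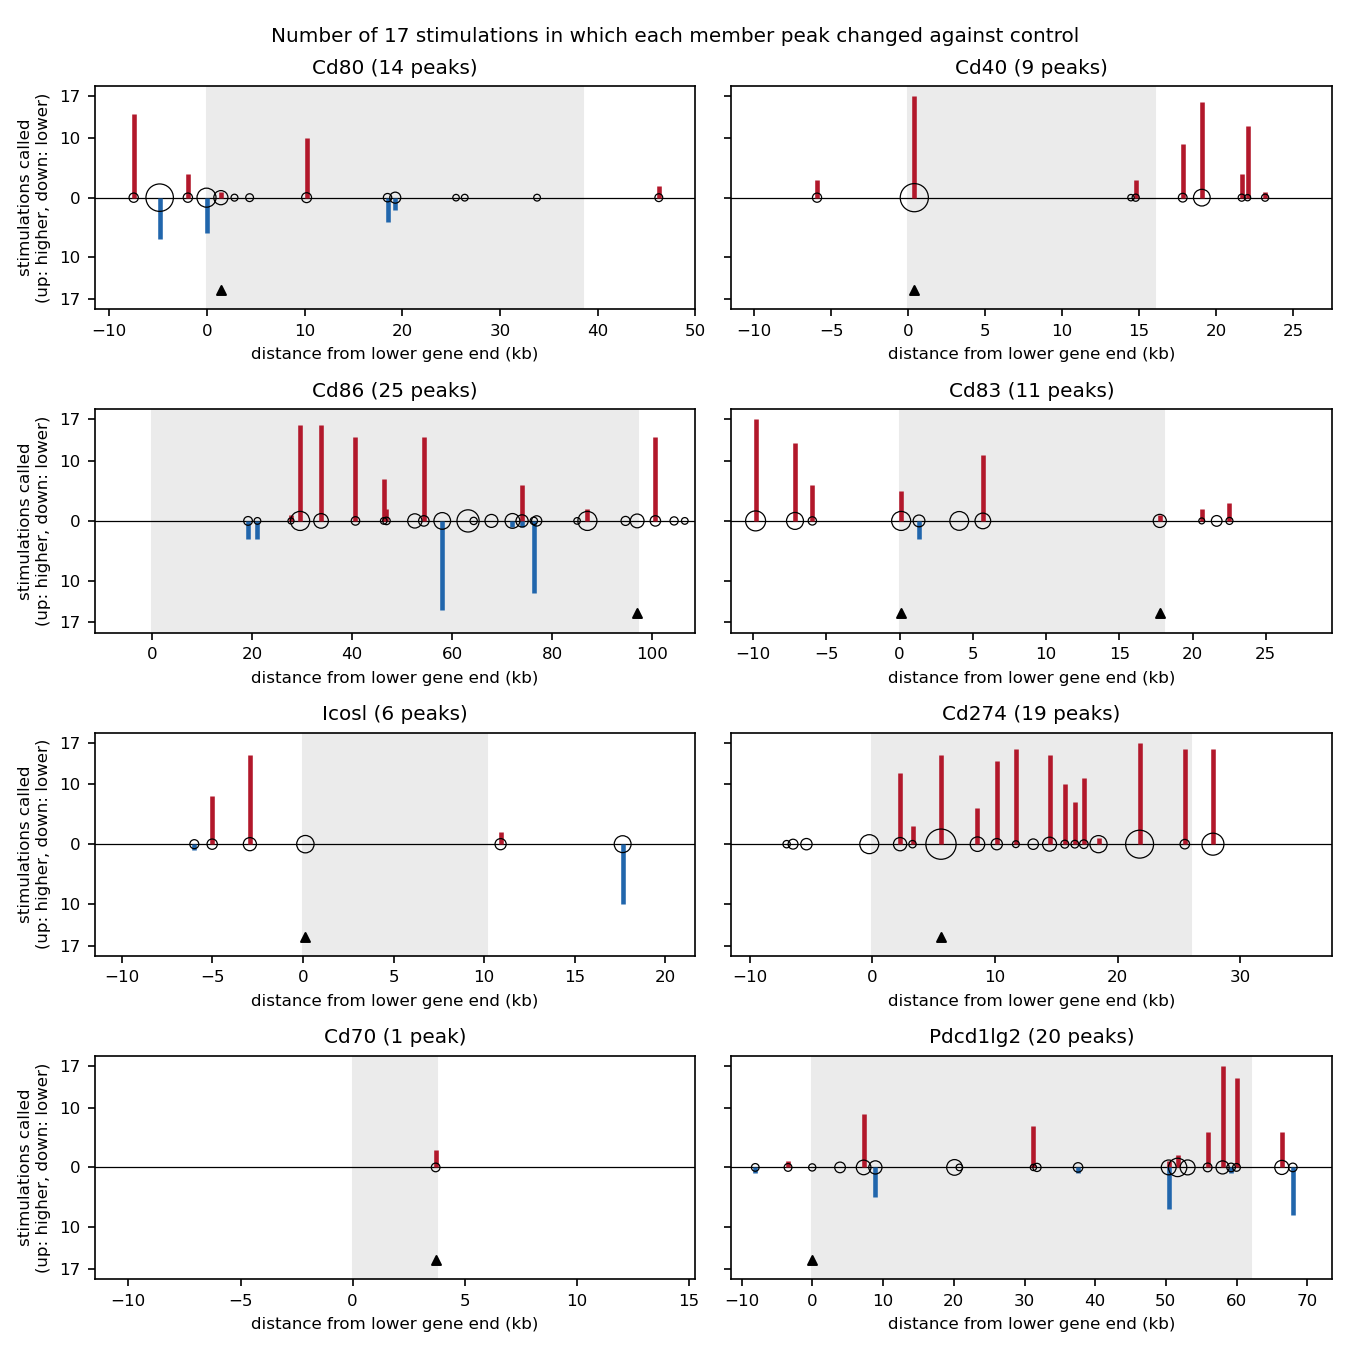
Number of the 17 stimulations in which each member peak was called higher (red, upward) or lower (blue, downward) than Ctrl, plotted at the peak's centre in kb from the lower-coordinate end of its gene. Grey marks the gene's span, circle area grows with mean CPM, and triangles mark peaks over a start site or gene end. The tallest red bar stands away from the triangles at Cd80, Cd83, Cd86, Icosl, Cd274 and Pdcd1lg2, and over one at Cd40 and Cd70.

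Rises outnumbered falls among the members in each of the 17 stimulations. PAM raised 14 members and lowered 5, where 11.1% and 9.45% of all tested peaks were called. In either direction these were 18.1% of the members and 20.5% of all peaks, so that total is not read as a result about the members. LPS raised 34 and lowered 3, where 11.2% and 11.1% of all peaks were called. HMW raised 16 and lowered 0, against 5.21% and 5.46%, with 33 members at an unadjusted p under 0.05 in either direction, and DESeq2 called 16 higher and 0 lower. SeV raised 35 and lowered 6 (14.1% and 13.8% of all peaks). The cyclic dinucleotide 3',3'-cGAMP, a ligand of STING, raised 27 and lowered 3 (11.6% and 11.6%). Depleted zymosan raised 11 and lowered 3 (4.16% and 1.75%, or 5.91% in either direction).

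Pairs and triplets raised between 22 and 41 members. In PL, 36 rose and 4 fell (13.8% and 13.5% of all peaks). For PH the counts were 29 and 5 (13.6% and 12.8%), and for LH 29 and 4 (11.3% and 10.5%). The 2 pairs of PAM with SeV or cGAMP gave the highest counts of rises among the pairs. PS raised 37 and lowered 5 (17.3% and 16.2%), and PcG raised 40 and lowered 5 (16.8% and 16.2%). ScG raised 29 and lowered 8 (14.4% and 13.3%). In the zymosan pairs, ZS raised 28 and lowered 7 (14.4% and 14%), and ZcG 22 and 10 (11.4% and 10.2%). Among triplets, PLH raised 39 and lowered 4 (14.9% and 14.7%, or 29.7% in either direction), PScG 41 and 6 (19% and 18.1%), and ZScG 30 and 13 (16.2% and 16.1%). The median log2 fold change of the 105 members ran from 0.04 (Z) to 0.71 (PcG), while that of all tested peaks ran from -0.04 to 0.04.

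Several of these counts leaned on 1 library. Without Ctrl replicate 1, the members called in either direction went from 19 to 10 in P, from 37 to 18 in L, from 41 to 26 in S, from 14 to 5 in Z, from 40 to 26 in PL, from 33 to 20 in LH and from 32 to 19 in ZcG. Without Ctrl replicate 2, Z had 8. Leaving out P replicate 1 gave 12 in P, L replicate 2 gave 24 in L, Z replicate 1 gave 6 in Z, and ZcG replicate 2 gave 19 in ZcG. The share of rises among called members was 73.7% in P, 85.4% in S, 87.9% in LH and 85.3% in PH, and with libraries scaled to total counts it was 100%, 96%, 100% and 95.6%. Among all called peaks it was 54%, 50.6%, 52% and 51.5%, and 87.1%, 81.1%, 83.7% and 82.7% with that scaling. In ScG and ZcG the members' share was 78.4% and 68.8% under both scalings. With that scaling the median log2 change of all peaks reached 0.45 in L and PcG, against 0.03 and 0.02 in the reported fit. Changes here are therefore read relative to the median of all peaks. Against Ctrl within the groups of like mitochondrial share, 11 (Z), 22 (ZcG), 29 (ScG) and 30 (ZScG) members rose.

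**Figure D2:**
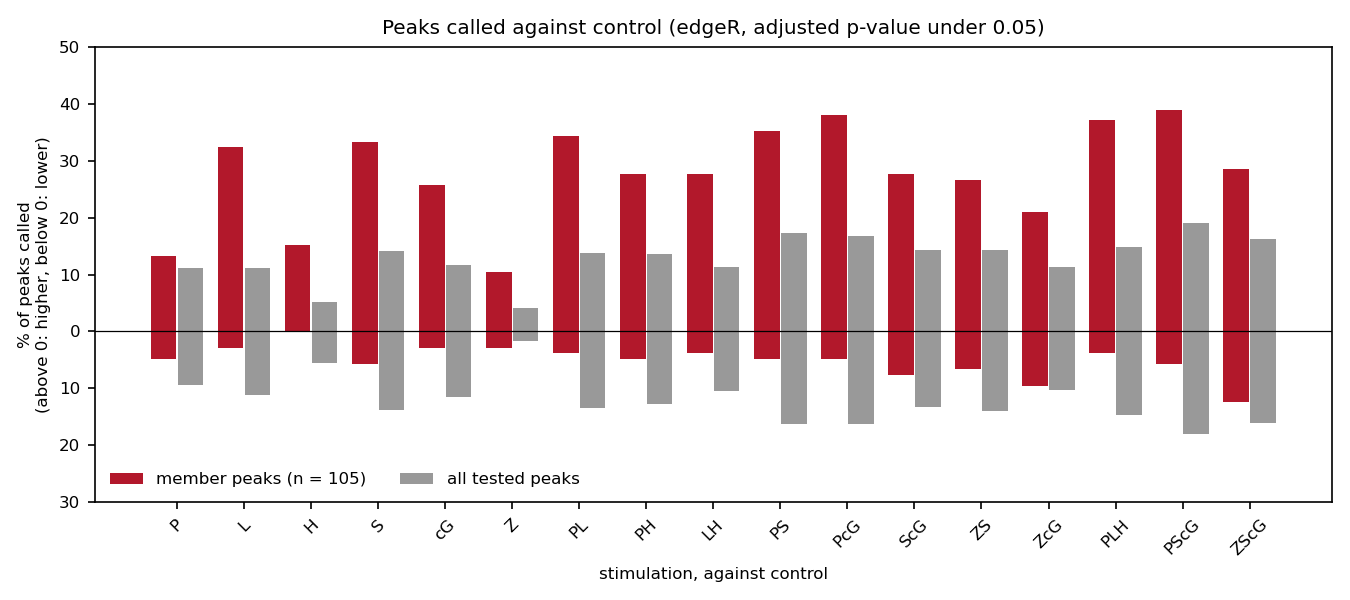
Percent of the 105 member peaks (red) and of all 119464 tested peaks (grey) called against Ctrl in each stimulation, with rises above 0 and falls below 0. Red bars exceed grey ones above 0 in every stimulation, least in P (13.3% against 11.1%), and fall short of them below 0 in all except Z.

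The genes differed in how much of their neighbourhood moved. Counting every peak in every stimulation, Cd274 had 159 rises and 0 falls among 323 possible calls, and Cd40 had 65 and 0 among 153. Cd83 had 58 rises and 3 falls among 187. Cd86 had 92 and 35 among 425, Pdcd1lg2 64 and 23 among 340, and Cd80 31 and 19 among 238. Icosl had 25 rises and 11 falls among 102, and Cd70 had 3 and 0 among 17. Over all tested peaks, 13.0% of the possible calls were rises and 12.3% falls. The rises made up 49.2% at Cd274, 42.5% at Cd40, 31.0% at Cd83, 24.5% at Icosl, 21.6% at Cd86, 18.8% at Pdcd1lg2, 17.6% at Cd70 and 13.0% at Cd80, the last being that of all peaks. Falls were called at 5 of the 8 genes and at none of the peaks of Cd274, Cd40 or Cd70 by edgeR. Peaks over a start site or gene end had a median of 1 call, and 6 of these 9 rose at least once. The 64 other peaks within a span had a median of 3 calls and the 32 flank peaks a median of 4.

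For each gene, up to 3 peaks were described in full: the one over the start site, the one with the highest mean CPM, and the one called in the most stimulations. Where the RefSeq promoter table held no strand (Cd40, Cd83, Cd86 and Cd70), peaks over either end of the gene's span stood in for the start site. The tables used here give spans only, so exons and introns within a span were not resolved.

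CD80 is a B7 family ligand that binds CD28 and, more tightly, CTLA-4. The peak that changed in the most stimulations lay in its flank, 7252 bases below the gene's span (chr16:38449668-38450178, 511 bases), overlapping the span of the neighbour Adprh. It was almost shut at rest, at 0.109 and 0.289 CPM in the Ctrl libraries. It stood at 2.33 and 2.70 CPM with LPS, 2.62 and 3.63 with SeV and 2.31 and 2.01 with cGAMP. It reached 4.96 and 5.65 in PS and 5.30 and 5.62 in PScG. All 34 stimulated libraries lay above both Ctrl libraries, which the choice of this peak favours.

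The flank peak of Cd80 was called in 14 of 17 stimulations, with a log2 fold change of 4.68 ± 0.572 (SE; edgeR adjusted p = 1.73e-12) in PScG and 3.87 ± 0.602 (3.52e-08) in SeV. The 3 stimulations not called were PAM (0.61 and 0.506 CPM; log2 1.4, adjusted p = 0.218), HMW (0.635 and 0.776; 1.72, 0.138) and zymosan (0.525 and 0.420; 1.16, 0.522). PAM was lower than LPS, SeV and cGAMP at this peak, by edgeR log2 differences of -2.16 (adjusted p = 0.00031), -2.47 (5.28e-06) and -1.93 (0.00104). In the order of the 18 group means, PS and PScG stood apart at the top: the next group, PLH, did not overlap PS. The ZcG call (log2 2.13, adjusted p = 0.0342) was lost without any 1 of the 4 libraries it rests on, at log2 1.66 without Ctrl replicate 1 and 2.98 without Ctrl replicate 2, and by DESeq2 at 2.19. Control counts at this peak are few, so the size of each fold is uncertain.

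The most open Cd80 peak did not rise. It lay 4114 bases below the span and overlapped that of Adprh (chr16:38451851-38453316), and whether its signal belongs to Cd80 or to Adprh was not tested. It held 34.3 and 32.7 CPM in Ctrl and 21.8 to 34.1 CPM in stimulated libraries, 31 of 34 of which were below both Ctrl libraries. It was called lower in 7 stimulations, the largest fall being in ZScG (log2 -0.51 ± 0.134, adjusted p = 0.00139). With total-count scaling 6 of these 7 calls were lost and PcG turned to 0.11, so the direction in PcG depends on the scaling. P and PcG were also not called by DESeq2 (-0.31 and -0.29). Without Ctrl replicate 1 the falls in P (-0.28), LH (-0.39), PcG (-0.27) and ZS (-0.40) were not called, and P (-0.16), PcG (-0.23) and ZS (-0.28) were not called without their own replicate 2. P (-0.37) and PcG (-0.35) were also not called without Ctrl replicate 2, nor LH (-0.43) without LH replicate 1.

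Over the Cd80 start site itself (chr16:38458527-38459179), where the printed AP-1 match lies, the level was 6.77 and 6.17 CPM in Ctrl and 4.67 to 10.9 in stimulated libraries. Only SeV was called, at 8.83 and 10.9 CPM (log2 0.61 ± 0.234, edgeR adjusted p = 0.0382), and the call was lost without S replicate 2 (0.45), Ctrl replicate 1 (0.69) or Ctrl replicate 2 (0.54). SeV was also higher there than P, L, H and Z, where P minus S was -0.89 (adjusted p = 0.00135), L minus S -0.74 (0.0164), H minus S -0.84 (0.00739) and S minus Z 0.72 (0.0248). All 4 were lost without S replicate 2 (-0.73, -0.58, -0.68 and 0.56), L also without L replicate 1 (-0.66) or 2 (-0.84), H without H replicate 1 (-0.88) or 2 (-0.80), and Z without Z replicate 2 (0.48). The difference between S and Z cannot be told apart from the higher mitochondrial share of Z. Of the 11 Cd80 peaks not described, 3 rose in 2 to 10 stimulations, 3 fell in 2 to 6 and 5 were never called.

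CD86, the other B7 ligand of CD28, had the most peaks. Its most often called peak lay inside the span (chr16:36602393-36603105, 713 bases), 33.8 kb from the lower end. In Ctrl it held 1.09 and 1.74 CPM. PAM left it at 2.29 and 1.66 CPM, overlapping Ctrl, while the other single ligands raised it: 7.91 and 9.76 with LPS, 5.97 and 7.67 with HMW, 8.44 and 10.6 with SeV, 10.7 and 12.2 with cGAMP, and 5.12 and 3.67 with zymosan. The highest group was cGAMP alone, whose libraries did not overlap those of SeV, the next in order.

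At this Cd86 peak, 16 stimulations were called, with log2 changes from 1.59 ± 0.353 (Z, edgeR adjusted p = 0.000834) to 2.99 ± 0.298 (cG, 7.28e-17). PAM was the exception (0.46 ± 0.377, adjusted p = 0.433). Its difference from each of the other 5 single ligands was called: -2.17 from L, -1.78 from H, -2.27 from S, -2.54 from cG and -1.14 from Z, the last with adjusted p = 0.00684 and the others at or below 1.31e-07. The difference from Z was lost without Z replicate 1 (-0.87) or P replicate 2 (-0.92), with total-count scaling (-0.78) and with only the groups compared (-1.13). It also cannot be told apart from the mitochondrial share (61.7% in Z and 49.5% in P). Adding a second ligand to PAM raised the peak in each of the 4 PAM pairs, by 1.77 (PH) to 2.03 (PS). The Z call was lost without Z replicate 1 (1.35) or Ctrl replicate 1 (1.31).

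The most open Cd86 peak (chr16:36631560-36632755) was called in 0 of 17 stimulations by edgeR and by DESeq2, with 5 at an unadjusted p under 0.05. It held 16 and 16.7 CPM in Ctrl and 12.5 to 22.0 in stimulated libraries, and with total-count scaling 11 stimulations were called. The peak over the upper end of the gene's span (chr16:36665707-36666276) held 6.12 and 6.17 CPM in Ctrl. It too had 0 calls by both tools, with 1 at an unadjusted p under 0.05 and, with total-count scaling, 3 calls. It was nonetheless lower with PAM (5.80 and 3.54 CPM) than with SeV (9.09 and 8.43), by -0.91 (edgeR adjusted p = 0.00208), and than with cGAMP, by -0.88 (0.00367). Both were lost without P replicate 2 (-0.60 and -0.57), and the cGAMP one without cG replicate 2 (-0.77). Among the 22 other Cd86 peaks, 9 rose in 1 to 16 stimulations, 6 fell in 1 to 15, 1 of which did both, and 8 were never called. The gene thus held peaks that opened in most stimulations and, within the same span, others that closed relative to the median of all peaks. Falls were called in 15 stimulations at 1 peak and 12 at another. Some of these falls depend on the scaling. With total-count scaling 0 members were called lower in P, L and LH, where 3, 1 and 1 Cd86 peaks fell in the reported fit.

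ICOSL binds ICOS on activated T cells and supports follicular helper cells. Its most often called peak lay 2572 bases before the gene's start (chr10:78066070-78066796, 727 bases; it also overlaps Gm51775). It held 0.656 and 2.12 CPM in Ctrl. With 1 ligand it stood at 3.89 and 3.83 CPM (P), 3.18 and 3.83 (L), 2.41 and 3.10 (H), 3.73 and 5.17 (S), 3.82 and 4.66 (cG), and 1.71 and 1.26 (Z). Single ligands other than Z thus lay above both Ctrl libraries, in a narrow band up to 5.17 CPM.

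Several pairs stood above both of their single ligands at this peak. The level was 10.5 and 8.56 CPM in PS, 10.1 and 9.56 in PcG, 9.77 and 7.76 in ScG, and 9.79 and 12.0 in PScG. In 5 of the 8 pairs both libraries lay above both libraries of each single ligand, which was seen in 4 pairs at Cd274, 3 at Cd80, 2 at Cd40 and 0 at Cd83, Cd86, Pdcd1lg2 and Cd70. How often this is met over all tested peaks was not counted, so these counts are not read as particular to Icosl. PS exceeded P by 1.30 ± 0.258 (edgeR adjusted p = 3.54e-05) and S by 1.09 ± 0.248 (0.00192) on the log2 scale. PcG exceeded P by 1.35 (2.69e-05) and cG by 1.21 (0.000264). ScG exceeded S by 0.98 (0.0448) and cG by 1.05 (0.00746).

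Against Ctrl this Icosl peak was called in 15 stimulations, up to 2.93 ± 0.323 (PScG, edgeR adjusted p = 9.07e-15), and not in H (0.93, adjusted p = 0.0958) or Z (0.04, 0.978). None of the 8 pair interactions was called at it by edgeR or DESeq2, so on the log2 scale the pairs did not depart detectably from the sum of their single changes. In CPM, PS averaged 9.53 where the sum of the 2 single increments over Ctrl would give 6.92, and PcG averaged 9.83 where it would give 6.71. Calls in P (0.88), L (0.74), cG (1.01) and LH (0.84) were lost without Ctrl replicate 1, the lower of the 2 controls. Differences of PS from S (0.88 without S replicate 1, 0.94 without PS replicate 1) and of ScG from cG (0.87 without ScG replicate 1, 0.91 without cG replicate 1) were lost without 1 library. The ScG difference from S was lost without any 1 of its 4 libraries (0.77 to 1.24), by DESeq2 and with total-count scaling (0.69).

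Over the Icosl start site (chr10:78068800-78070193), the peak had the gene's highest mean CPM and was not called: 10.5 and 8.97 CPM in Ctrl and 6.04 to 15.0 in stimulated libraries, with 0 of 17 called by edgeR and by DESeq2 and 2 at an unadjusted p under 0.05. With total-count scaling 3 were called. All neighbours in the order of its 18 group means overlapped. Of the 4 other Icosl peaks, 2 rose in 2 and 8 stimulations and 2 fell in 1 and 10.

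CD70 binds CD27 on T cells and belongs to the TNF family. Its window held a single peak, over the upper end of the span (chr17:57149496-57149896, also overlapping Gm33566). It held 0.874 and 1.16 CPM in Ctrl and 0.394 to 3.19 in stimulated libraries, 29 of 34 of which exceeded both controls. PcG (2.60 and 2.42 CPM; log2 1.29 ± 0.473, edgeR adjusted p = 0.0247), PLH (2.02 and 2.73; 1.20, 0.0458) and PScG (2.15 and 2.56; 1.20, 0.0402) were called. Each of these 3 calls was lost without any 1 of the libraries it rests on (log2 0.98 to 1.51), at a peak of few counts. With total-count scaling 10 stimulations were called. Z was its lowest group (0.394 and 0.839 CPM), below H, S and cG, by 1.72 to 1.85 on the log2 scale (adjusted p = 0.0342 at most), and the H difference was not called by DESeq2 (0.0537). All 3 were lost without Z replicate 1 (1.44, 1.35 and 1.47), and none can be told apart from the higher mitochondrial share of Z. The H one was also lost without H replicate 2 (1.19) or Z replicate 2 (2.52), the S one without S replicate 2 (1.56) and the cG one without cG replicate 1 (1.48).

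CD40 is itself a receptor: T cells engage it through CD40 ligand, which licenses the dendritic cell. A broad peak over the lower end of its span (chr2:165054819-165057206, 2388 bases) was at the same time its most open and its most often called peak. It held 9.83 and 11.8 CPM in Ctrl, 22.4 and 25.1 with PAM, 37.4 and 33.9 with LPS, 25.7 and 23.0 with HMW, 35.0 and 34.3 with SeV, 34.1 and 32.5 with cGAMP, and 18.2 and 20.5 with zymosan. All 34 stimulated libraries lay above the controls, between 18.2 and 40.3 CPM. Single ligands fell into a higher range (L, S, cG) and a lower one (P, H, Z) that did not overlap.

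The Cd40 peak rose in all 17 stimulations, from 0.84 ± 0.151 (Z, edgeR adjusted p = 1.69e-05) to 1.83 ± 0.138 (PScG, 1.28e-26). PAM was lower than L by -0.59 (adjusted p = 0.000104), than S by -0.55 (0.000128) and than cG by -0.49 (0.000861). HMW was lower than L by 0.54 (0.001), and also lower than S (-0.50, 0.0014) and cG (-0.45, 0.00876), and these 3 differences were lost without H replicate 2 (0.47, -0.43 and -0.37). The L difference was also lost without L replicate 1 (0.47) and the cG one without cG replicate 1 (-0.41). Adding SeV or cGAMP to PAM raised the peak by 0.67 (2.21e-06) and 0.62 (2.16e-05). Adding zymosan went the other way: ZcG was lower than cG by -0.49 (0.0138) and ZS lower than S by -0.41 (0.0386), in the ranges 22.8 to 24.7 and 24.5 to 27.4 CPM. Both differences were lost without any 1 of their 4 libraries (adjusted p 0.0555 to 0.267), and the mitochondrial share of ZcG and cG (63.0% and 46.1%) cannot be told apart from the ligand there. Of the other 8 Cd40 peaks, 7 rose in 1 to 16 stimulations, and 1 was never called. One of them had 0 counts in both Ctrl libraries (chr2:165077558-165077775). Against a floor of 3 counts over the 2 Ctrl libraries, its rise in LH was at least 3.03 on the log2 scale.

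CD83 marks mature dendritic cells and slows the turnover of MHC class II and CD86. Its most open and most often called peak was in the flank, 9403 bases below the span (chr13:43774843-43775709, 867 bases). Ctrl held 4.59 and 4.63 CPM. PAM gave 14.4 and 15.0, LPS 16.9 and 17.7, HMW 10.9 and 9.22, SeV 16 and 16.8, cGAMP 15.1 and 18.5, and zymosan 10.8 and 11.9. All 34 stimulated libraries (9.22 to 20.6 CPM) lay above the controls, and HMW and zymosan were the lowest single ligands. The 17 log2 changes were all called, from 1.13 ± 0.210 (H, edgeR adjusted p = 2.58e-05) to 1.97 ± 0.199 (PScG, 6.11e-17). The differences of PAM from L (-0.24, adjusted p = 0.38), S (-0.16, 0.524) and cG (-0.20, 0.417) were not called. It was higher than H by 0.54 (0.0204), a difference lost without P replicate 1 (0.57), P replicate 2 (0.51) or H replicate 2 (0.43).

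The Cd83 peak over the lower end of the span (chr13:43784798-43785630) held 8.09 and 12.3 CPM in Ctrl and 10.2 to 16 in stimulated libraries. It was called in L, S, PS, ScG and PScG, with log2 changes of 0.48 to 0.59 (adjusted p 0.00712 to 0.0384). All 5 calls were lost without Ctrl replicate 1, the lower control, where the changes were 0.23 to 0.34, and DESeq2 called 3. L was also not called without L replicate 2 (0.33), PS without PS replicate 1 (0.46), and S and ScG without either of their own libraries (0.42 to 0.54). With total-count scaling 12 stimulations were called. At the upper end (chr13:43802485-43803262), only LPS was called (7.28 and 9.27 CPM against 4.92 and 5.21; log2 0.71 ± 0.266, adjusted p = 0.0386). That call was lost without L replicate 2 (0.52) or either Ctrl library (0.68 and 0.76), and DESeq2 called 0, with total-count scaling giving 6. Of the 8 other Cd83 peaks, 5 rose in 2 to 13 stimulations, 1 fell in 3 and 2 were never called.

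**Figure D3:**
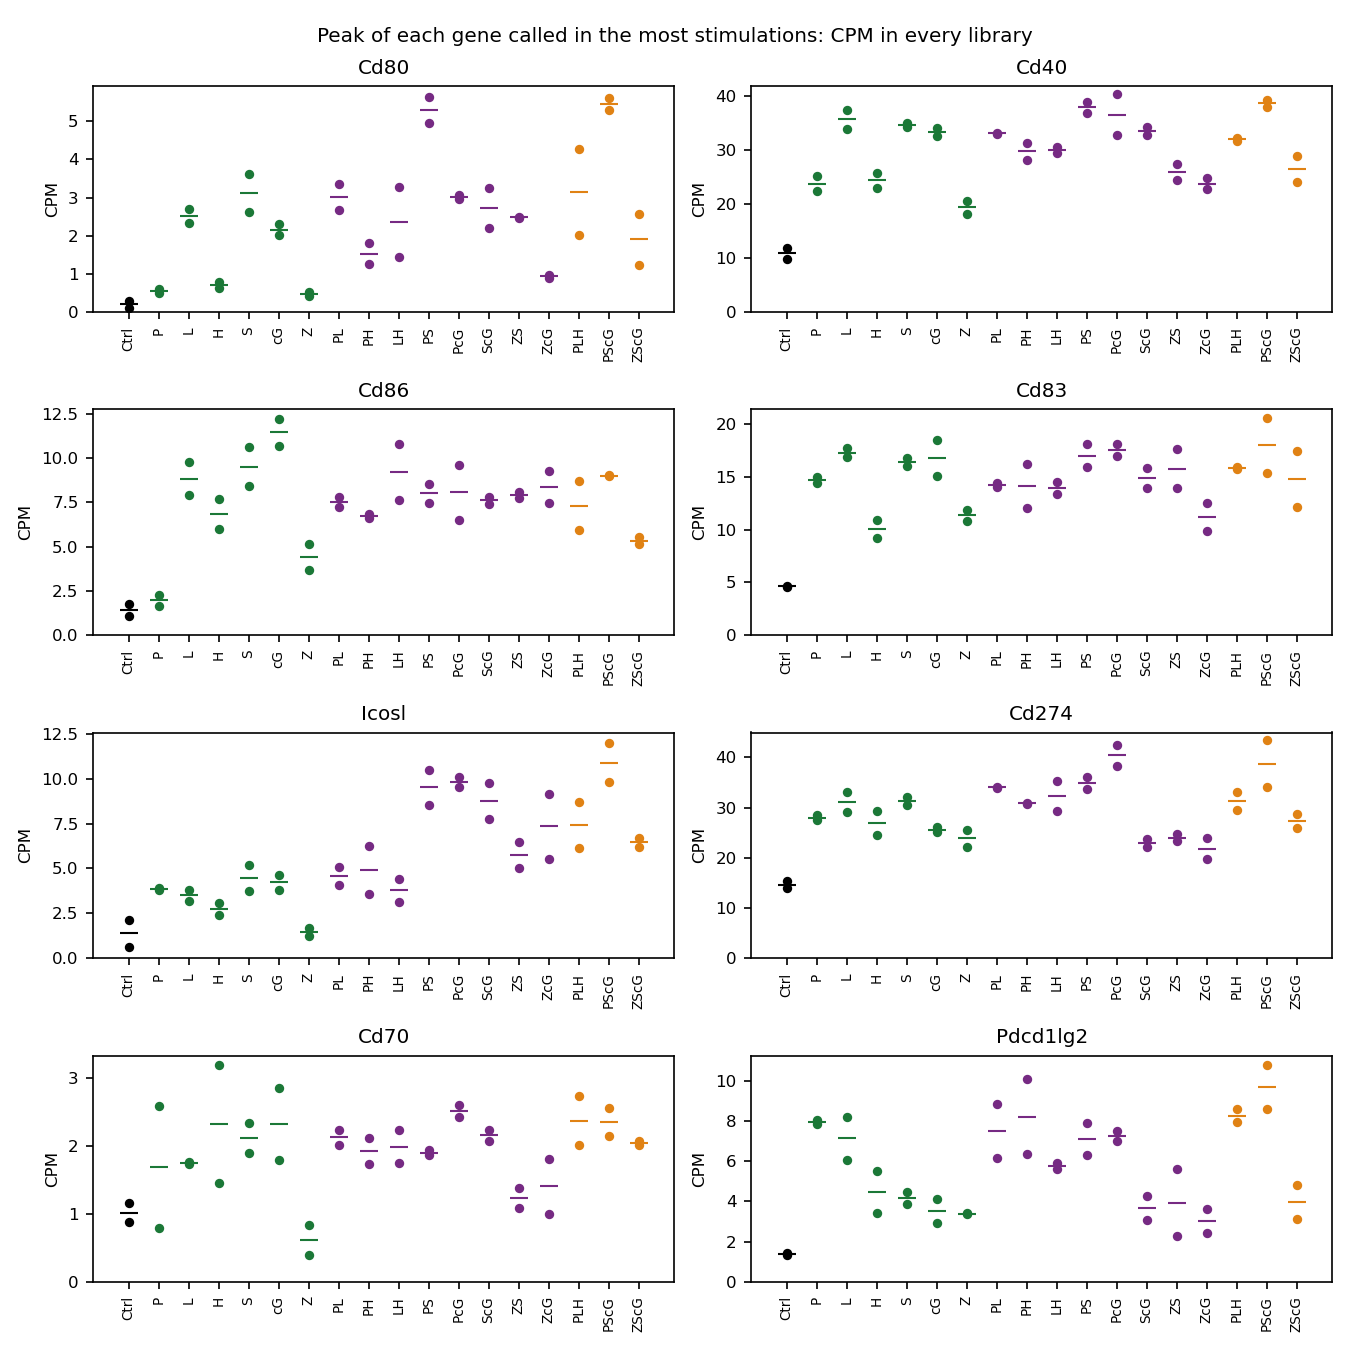
CPM of the peak called in the most stimulations at each gene, in every library: points are the 2 libraries of a group, bars their mean, with Ctrl in black, single ligands in green, pairs in purple and triplets in orange. At Cd40, Cd80, Cd83, Cd274 and Pdcd1lg2 all 34 stimulated libraries lie above Ctrl. At Cd86 PAM overlaps Ctrl, and at Icosl PS, PcG, ScG and PScG stand highest. The peaks were picked by their calls against these same Ctrl libraries, so lying above Ctrl follows in part from that choice.

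PD-L1, made from Cd274, is the main ligand of PD-1 and also binds CD80 on the same cell. Its start site (chr19:29366109-29369315, 3207 bases, also overlapping the span of Plgrkt) carried the member peak with the highest mean CPM, at 21.0 and 20.0 CPM in Ctrl. The level was 26.4 and 24.9 with PAM, 37.0 and 36.8 with LPS, 28.5 and 25.2 with HMW, 39.5 and 33.5 with SeV, 43.6 and 41.9 with cGAMP, and 21.5 and 27.7 with zymosan. Every stimulated library exceeded both controls, and cGAMP gave the highest group mean. Called changes covered 15 stimulations, from 0.40 ± 0.127 (H, edgeR adjusted p = 0.0258) to 1.06 ± 0.123 (cG, 3.94e-13). PAM (0.33, adjusted p = 0.053) and zymosan (0.28, 0.235) were not called. The H call was lost without H replicate 1 (0.31) or either Ctrl library (0.44 and 0.36).

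At the Cd274 start, PAM was lower than L by -0.52 (adjusted p = 0.000444), than S by -0.51 (0.000273) and than cG by -0.74 (6.55e-08). PL, PS and PcG each exceeded PAM, by 0.60, 0.52 and 0.62 (adjusted p at most 0.000238). PH exceeded it by 0.40 (0.0326), a difference lost without any 1 of its 4 libraries (0.36 to 0.44). Zymosan with cGAMP was below cGAMP alone (-0.45, 0.0162), also lost without any 1 library (-0.42 to -0.48), with the mitochondrial shares given above.

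A second broad Cd274 peak within the span (chr19:29381552-29386264, 4713 bases, also overlapping Gm36043) was called in all 17 stimulations, PAM included. It held 15.4 and 14.0 CPM in Ctrl and 19.7 to 43.5 in stimulated libraries. PAM gave 28.5 and 27.5 CPM (0.93 ± 0.136, edgeR adjusted p = 6.78e-09), and PcG, the highest group, 38.4 and 42.5 (1.46 ± 0.132, 4.46e-20). The smallest change was in ZcG (0.58, adjusted p = 0.00124), not called without ZcG replicate 2 (0.43). PcG exceeded P by 0.53 (0.000419) and cG by 0.65 (1.49e-05). PScG exceeded ScG by 0.75 (6.75e-06). Among the 17 other Cd274 peaks, 12 rose in 1 to 16 stimulations and 5 were never called. One had 0 counts in both Ctrl libraries (chr19:29373683-29373954) and was called in 16 stimulations. Against the floor of 3 counts its rise in PcG was at least 3.23 on the log2 scale, and P, with 6 counts, was not called (adjusted p = 0.0876).

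PD-L2, made from Pdcd1lg2 next to Cd274 on chromosome 19, is the other PD-1 ligand and is mostly found on dendritic cells and macrophages. The peak over its start site (chr19:29410736-29411025) covered 183 of the 250 printed bases, and the printed kappaB match lies outside it. It was faint, at 1.20 and 1.45 CPM in Ctrl and 0.215 to 1.83 in stimulated libraries. It was called in 0 of 17 stimulations by edgeR and by DESeq2, with 1 at an unadjusted p under 0.05. The most often called peak lay 58.0 kb into the span (chr19:29468503-29469385, 883 bases), with 1.31 and 1.45 CPM in Ctrl. It had 7.86 and 8.09 CPM with PAM, 8.20 and 6.09 with LPS, 3.43 and 5.52 with HMW, 4.45 and 3.87 with SeV, 4.14 and 2.94 with cGAMP, and 3.41 and 3.36 with zymosan. Here PAM and LPS were the highest single ligands, whereas at Cd86 PAM was the lowest.

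All 17 changes of this Pdcd1lg2 peak were called, from 1.12 ± 0.399 (ZcG, edgeR adjusted p = 0.0298) to 2.79 ± 0.330 (PScG, 3.04e-13). PAM (2.52 ± 0.334) exceeded H by 0.86 (adjusted p = 0.0165), S by 0.94 (0.0031), cG by 1.18 (0.000296) and Z by 1.23 (0.00122). The H difference was lost without H replicate 1 (0.53) or either PAM library (0.88 and 0.83), and the S one without S replicate 2 (0.84). The Z difference cannot be told apart from the higher mitochondrial share of Z. PcG exceeded cG by 1.05 (0.00377), lost without cG replicate 2 (0.82), and PScG exceeded ScG by 1.38 (0.000239). Z was not called without any 1 of its 4 libraries (1.21 to 1.36) or when only the groups compared were fitted (1.29). ZcG was not called without ZcG replicate 1 (0.84) or either Ctrl library (1.07 and 1.20), nor with only the groups compared (1.15). Calls were lost in cG without cG replicate 1 (1.08), in ScG without ScG replicate 1 (1.14), in ZS without ZS replicate 2 (0.70) and in ZScG without ZScG replicate 2 (1.18).

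The most open Pdcd1lg2 peak (chr19:29462167-29462996) held 8.09 and 12.0 CPM in Ctrl and 9.10 to 16.4 in stimulated libraries. It was called in zymosan (16 and 14.6 CPM; log2 0.60 ± 0.194, adjusted p = 0.0432) and PS (12.7 and 16.4; 0.54 ± 0.182, 0.0131). Zymosan was not called without Ctrl replicate 1 (0.34), Z replicate 1 (0.52) or Z replicate 2 (0.65), by DESeq2 (0.59) or with total-count scaling (0.56), and PS was not called without Ctrl replicate 1 (0.31) or PS replicate 2 (0.34). With total-count scaling 10 stimulations were called, and 1 by DESeq2 or with only the groups compared. Of the 17 other Pdcd1lg2 peaks, 7 rose in 1 to 15 stimulations, 6 fell in 1 to 8, 1 of which did both, and 5 were never called.

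**Figure D4:**
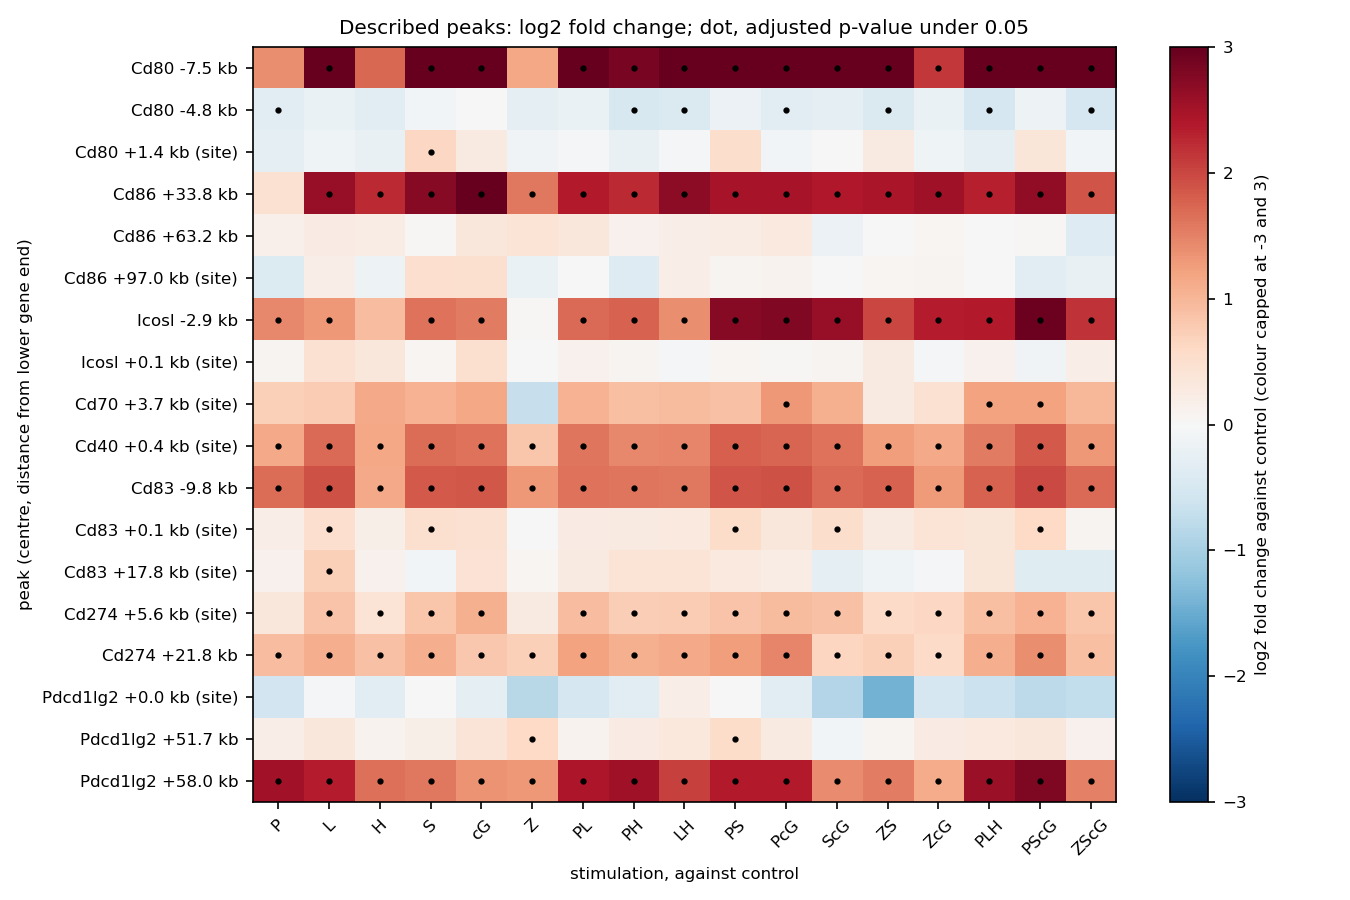
Log2 fold change against Ctrl of the 18 described peaks (rows, named by gene and by kb from the lower end of its span) in the 17 stimulations (columns), with colour capped at -3 and 3 and a dot where the adjusted p was under 0.05. The P column is pale at Cd86 +33.8 kb (0.46) and dark at Pdcd1lg2 +58.0 kb (2.52).

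Levels were compared between peaks per kb of peak length. The Cd80 flank peak at 38451851 was the densest of the described peaks, at 19.0 CPM per kb over the 36 libraries. It was followed by the Cd83 flank peak with 16.5 and the Cd83 lower-end peak with 15.5. The Cd40 peak had 12.3 and the Cd274 start 10.6. The Pdcd1lg2 start was the lowest, at 3.49 CPM per kb.

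The described peaks of different genes moved alike to different degrees across the 18 group means of log2 CPM, which share libraries and depth, so these correlations are a description only. Peaks picked as the most often called against Ctrl also had Ctrl as their lowest group, except at Cd70. That shared low point raises the correlations among them. The Cd40 peak correlated with the Cd83 flank peak (Pearson r = 0.928), the Cd80 flank peak (0.912) and the Cd274 start (0.911). The Cd274 peak within the span correlated most with the Pdcd1lg2 peak at 58.0 kb (0.90), and the Cd86 and Pdcd1lg2 peaks correlated at 0.368. Among 70171 candidate peaks elsewhere, the ones most like the Cd40 peak lay near Gjc3 (0.965), Bicra (0.960) and Gpd2 (0.958). For the Cd86 peak they lay near Iigp1 (0.960), Hk2 (0.955) and Oasl1 (0.953). For Pdcd1lg2 at 58.0 kb they lay at Prkcb (0.968), near Ms4a6d (0.968) and at Lpar1 (0.960). For the Icosl upstream peak they lay near Pigh (0.949), Kash5 (0.949) and Prkag2 (0.944). The likest peak to the Cd83 flank peak lay in Slamf7 (0.961), to the Cd80 flank peak in Rab7 (0.955), to the Cd274 start in Igf2bp2 (0.947) and to the Cd70 peak in Ndrg1 (0.924).

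Comparisons between single ligands were added after the values had been seen. PAM was lower than SeV at 28 members and higher at 5 (11.6% and 12.9% of all peaks), with 11 of the 28 at Cd274 and 7 at Cd86. It was lower than cGAMP at 25 and higher at 4 (11.1% and 12.7%), 9 of the 25 at Cd86 and 8 at Cd274. Against LPS, 16 members were lower and 1 higher in PAM (5.19% and 5.87%). Fewer members separated PAM from HMW, with 10 lower and 6 higher (4.96% and 7.18%), or from zymosan, with 4 lower and 6 higher (5.99% and 5.11%). In either direction these were 15.2% (HMW) and 9.52% (zymosan) of the members, near the 12.1% and 11.1% of all peaks. Those 2 counts are not read as results about the members. Zymosan was lower than LPS at 27 members and higher at 0 (5.66% and 7.77%), lower than SeV at 25 and higher at 1 (7.67% and 9.77%), and lower than cGAMP at 21 and higher at 1 (6.65% and 8.8%). The mitochondrial share was 61.7% in Z, 44.4% in L, 47.9% in S and 46.1% in cG. In these 3 comparisons it cannot be told apart from the ligand. SeV and cGAMP differed at 0 members by edgeR and by DESeq2, with 14 at an unadjusted p under 0.05 (0.949% of all peaks called in either direction). The members higher in PAM than in SeV lay at Pdcd1lg2 (3) and Cd86 (2).

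The PAM pairs were compared with each of their 2 ligands. PS was higher than P at 29 members and lower at 2 (9.36% and 8.78% of all peaks), and higher than S at 1 and lower at 0 (2.44% and 0.492%). PcG was higher than P at 26 and lower at 1 (7.39% and 7.35%), and higher than cG at 6 and lower at 1 (5.59% and 3.52%). In both comparisons with P, Cd274 held the most of the higher members, 12 in PS and 13 in PcG. PL was higher than P at 18 and lower at 1 (4.17% and 4.29%). It differed from L at 0 by edgeR and by DESeq2, with 8 at an unadjusted p under 0.05 (1.13% of all peaks called). PH was higher than P at 7 and lower at 1 (1.7% and 0.968%), and higher than H at 4 and lower at 1 (5.28% and 2.27%).

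In the pairs without PAM, LH differed from L at 0 members by both tools, with 8 at an unadjusted p under 0.05 (0.0645% of all peaks called), and was higher than H at 5 and lower at 2 (2.65% and 1.13%). ScG was higher than S at 1 and lower at 0 (0.477% and 0.102%), and higher than cG at 1 and lower at 4 (3.02% and 1.92%). ZS was higher than Z at 14 members and lower at 2 (6.63% and 8.53%), and higher than S at 0 and lower at 5 (1.52% and 1%). ZcG was higher than Z at 9 and lower at 1 (4.12% and 4.95%), and higher than cG at 1 and lower at 7 (1.82% and 1.04%). In either direction, ZS against Z called 15.2% of the members and 15.2% of all peaks. The shares were 9.52% and 9.07% for ZcG against Z, and 4.76% and 4.94% for ScG against cG. Those totals are near those of all peaks and are not read as results about the members. ScG, ZcG and ZS had higher mitochondrial shares (59.4%, 63.0% and 54.5%) than S and cG (47.9% and 46.1%). The part of this in the lower members was not tested.

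Triplets were compared with each of their pairs. PScG was higher than ScG at 9 members and lower at 0 (2.11% and 2.42% of all peaks), with 4 of the 9 at Cd274 and 3 at Pdcd1lg2. ZScG was higher than ZcG at 2 and lower at 0 (0.949% and 1.84%). The other 7 comparisons of a triplet with a pair gave 0 members by edgeR and by DESeq2. Members at an unadjusted p under 0.05 numbered 6 (PLH against PL), 10 (PLH against PH), 15 (PLH against LH), 10 (PScG against PS), 9 (PScG against PcG), 13 (ZScG against ZS) and 13 (ZScG against ScG). The shares of all peaks called in those 7 were 0.000837%, 0.248%, 0.546%, 0.602%, 0.412%, 0.0586% and 0.772%. The sum of 11 calls fell to 6 without PScG replicate 1 or ScG replicate 2 and to 7 without PScG replicate 2, and was 35 with total-count scaling. PScG had a mitochondrial share of 45.1% and ScG one of 59.4%, which cannot be told apart from the added PAM.

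The pair interaction asks whether a pair's log2 change from Ctrl departs from the sum of the changes of its 2 ligands. Where it was called, the pair nearly always fell short of the sum. In ScG, 25 members were below the sum and 0 above (7.52% and 6.92% of all peaks), and in LH 14 and 0 (2.62% and 2.26%). ZcG had 10 below and 0 above (1.74% and 0.753%), ZS 7 and 0 (2.6% and 0.826%), and PL 7 and 0 (4.18% and 2.57%). PH had 5 below and 0 above (1.08% and 0.471%), PcG 3 and 0 (2.17% and 1.09%), and PS 4 and 1 (2.9% and 1.68%). The 1 member above the sum, in PS, was a Cd86 peak (chr16:36640498-36641586), named after its values were seen. PL had 4 without Ctrl replicate 1 or P replicate 2, PH 2 without Ctrl replicate 1 or PH replicate 2 and 3 without H replicate 2 or Ctrl replicate 2, LH 9 without H replicate 1, and ZcG 6 without ZcG replicate 1. With total-count scaling the calls numbered 17 in PL, 26 in LH, 10 in PS, 6 in PcG, 52 in ScG, 13 in ZS and 20 in ZcG.

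A pair of peaks lay below the sum in all 8 pairs. At the Cd40 peak the interactions ran from -0.85 ± 0.187 (PH, edgeR adjusted p = 0.00278) to -1.67 ± 0.183 (ScG, 8.4e-14). SeV and cGAMP gave 1.67 and 1.62 there, and ScG, with both, gave 1.63. At the Cd83 flank peak they ran from -1.19 ± 0.266 (PH, 0.00327) to -2 ± 0.261 (ScG, 2.32e-10). The Cd274 peak within the span had 7 called (PcG was the exception), the Pdcd1lg2 peak at 58.0 kb 6, the Cd86 peak 4, the Cd274 start 2, and the Cd80 flank peak and the Cd86 upper-end peak 1 each. In CPM too, both libraries of each pair were below the sum of the single increments in 8 of 8 pairs at Cd40, Cd83, Cd86, Cd70 and Pdcd1lg2, and in 7 at Cd274. At Icosl, both libraries were above that sum in 5 pairs and below it in 2, and at Cd80 above in 3 and below in 3. How often either is met over all tested peaks was not counted. All interactions share the 2 Ctrl libraries. Most of the peaks named here were picked as the most often called against these same libraries. A low Ctrl value favours that choice and also lowers every interaction and raises the sum in CPM. The counts of pairs below the sum at these peaks are therefore not independent of how the peaks were picked. The PH interaction was lost at Cd40 without Ctrl replicate 1 (-0.73) and at Cd83 without H replicate 1 (-1.07) or PH replicate 2 (-0.99).

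**Figure D5:**
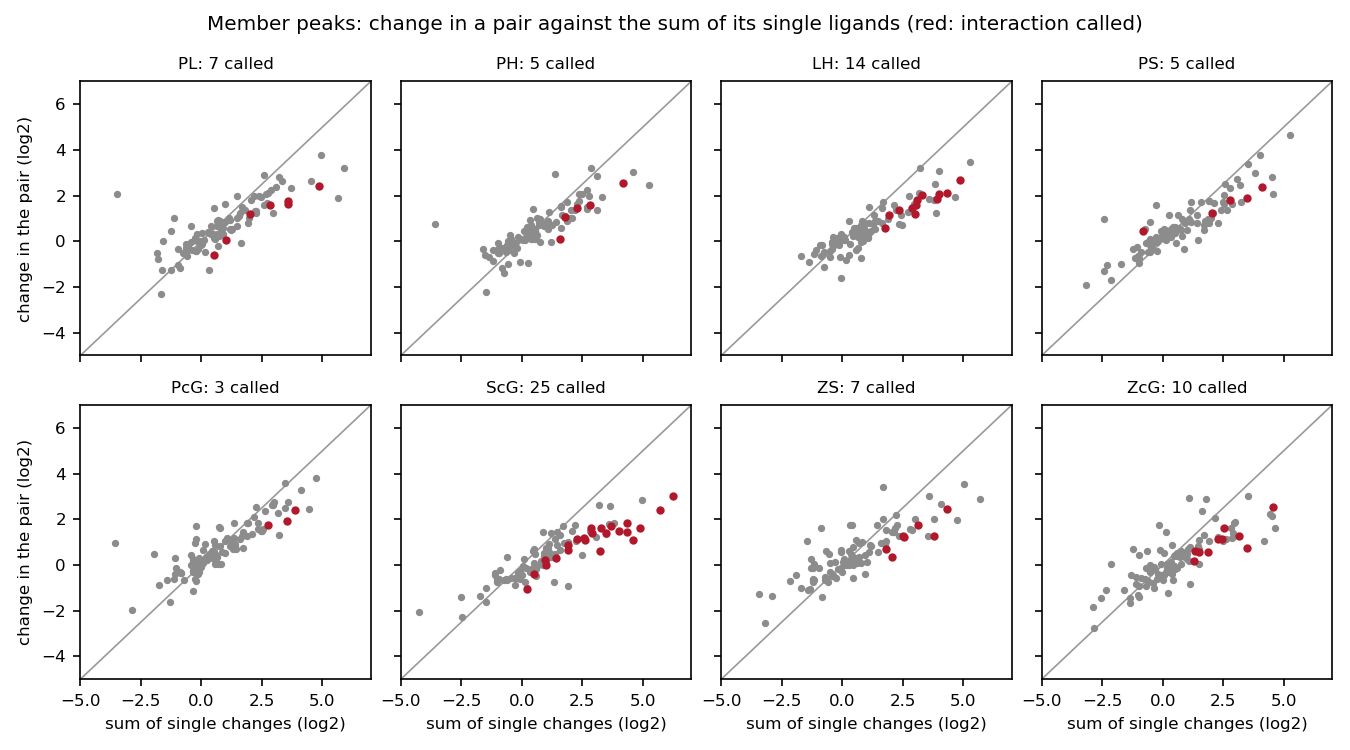
Each point is 1 member peak: the log2 change from Ctrl in the pair (vertical) against the sum of the log2 changes of its 2 single ligands (horizontal), with the line of equality and called interactions in red. Red points lie below the line except 1 in PS, and ScG has the most (25). Between 2 and 3 peaks per pair lie outside the axes, which run from -5 to 7.

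Other costimulatory, adhesion and checkpoint ligands were counted for comparison: Cd276, Vtcn1, Vsir, Tnfsf4, Tnfsf8, Tnfsf9, Tnfsf14, Tnfsf15, Tnfsf18, Cd48, Icam1, Pvr, Nectin2 and Lgals9, with 146 peaks. Between 13 (Z, 8.9%) and 57 (PScG, 39%) of them rose, where 4.16% and 19% of all peaks did, and between 2 and 12 fell, and their median log2 change ran from 0.03 (Z) to 0.68 (ZS). Tnfsf15, a TNF family ligand, had 144 rises and 8 falls at 14 peaks, and Tnfsf8, the ligand of CD30, had 98 and 21 at 13 peaks. Lgals9, a galectin that binds TIM-3, had 92 and 0 at 9 peaks. Vsir, which encodes the checkpoint protein VISTA, was mixed, with 58 rises and 56 falls at 22 peaks. Falls outnumbered rises at Nectin2, with 7 rises and 19 falls at 7 peaks, and Vtcn1 had 3 and 2 at 7 peaks. Over all 146 peaks and 17 stimulations, 26.1% of the possible calls were rises, and over the 105 members 27.8% were.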

How the data were processed

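ATAC-seq libraries of 36 samples (18 groups of 2) were analysed from a deposited count table, in which the authors give whole-number read counts per peak and library for 119751 peaks. Per the submitters' processing notes, the tools were Bowtie2 2.2.9, MACS2 (version given as 1.4), bedtools and featureCounts, with build mm10. Their order, the handling of duplicates, the shift for Tn5 and any pooling for peak calling are not given in the sources used here. Duplicate handling could change the counts and their spread, and peaks called on pooled or stimulated libraries could favour sites open in those libraries.

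The mitochondrial peak was left out before library sizes were taken. Counts were fitted with edgeR 4.0.16 (R 4.3.3, limma 3.58.1): TMM scaling, filterByExpr with a minimum count of 10, a trended dispersion, the robust quasi-likelihood test, 1 coefficient per group over all 36 libraries and 18 residual degrees of freedom. This kept 119464 peaks and dropped 286. P-values were adjusted by Benjamini-Hochberg within each of 65 comparisons: 17 against Ctrl, 16 of a pair with a single ligand, 9 of a triplet with a pair, 15 between single ligands and 8 pair interactions. CPM values use the TMM-scaled library sizes. A prior count of 2 entered only the log2 CPM group means used for correlations. Fitted log2 fold changes carry only edgeR's default, so folds over near-empty controls are large (up to 7.26 at a Cd274 peak with 0 Ctrl counts). Each SE was the absolute log2 fold change over the square root of that test's F statistic. Nuclear depth of 8181254 to 21985891 counts gave 3500 to 15790 counts over the member peaks per library. The fit was tested on simulated counts for S against Ctrl, on 119010 peaks: of 100 peaks changed by 1 on the log2 scale 29 were recovered with the right sign, of 100 changed by 2, 81 were, and 6 unchanged peaks were called. Few peaks were changed there, whereas 33341 were called for S against Ctrl in the data. The adjusted p cutoff was thus stricter in the simulation, and its recovery does not measure detection in the data.

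The described peaks of each gene were the one over the start site, the one with the highest mean CPM and the one called in the most stimulations. The peaks most alike were the 3 with the highest correlation, among those of mean CPM at least 1 near a protein-coding gene. The members and lists were chosen with earlier results of these data known, and the comparisons between single ligands were added after the values had been seen. Alternatives were DESeq2 1.42.0, relative log expression and total-count scaling, no filter, the mitochondrial peak kept, peak-wise dispersions, only the groups compared, a replicate block and leaving out each replicate. Replicates of a group correlated at 0.901 to 0.958 over all tested peaks, and the counts of no pair agreed within sampling noise (chi-square per degree of freedom 2.08 to 3.31). The result of 1 marker list is not reported here.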

Additional observations from a re-analysis of the deposited data

Results flagged for a closer look

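The effect of 1 ligand differed with the presence of another at some member peaks in all 8 pairs, by edgeR's test of the pair interaction. The members called numbered 7 in PL, 5 in PH, 14 in LH, 5 in PS, 3 in PcG, 25 in ScG, 7 in ZS and 10 in ZcG. As shares of the 105 members these were 6.67%, 4.76%, 13.3%, 4.76%, 2.86%, 23.8%, 6.67% and 9.52%, and the shares of all tested peaks were 6.75%, 1.55%, 4.88%, 4.59%, 3.27%, 14.4%, 3.43% and 2.49%. The shares in PL, PS and PcG are near those of all peaks, so those counts are not read as results about the members. The pair was below the sum of its single log2 changes in all of these calls except 1 of the 5 in PS, at a Cd86 peak. Of the 25 in ScG, 9 lay at Cd274, 6 at Cd86 and 4 at Cd83. Of the 14 in LH, 6 lay at Cd274. These tests share the Ctrl libraries. ScG and ZcG had mitochondrial shares of 59.4% and 63.0% and S and cG 47.9% and 46.1%, whose part in the interactions was not tested.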

How the results depend on the processing

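Total-count scaling moved the most counts of member peaks. Against Ctrl it called 62 in L, 25 in H and 50 in cG. Among interactions it called 17 in PL, 26 in LH, 10 in PS, 6 in PcG, 52 in ScG, 13 in ZS and 20 in ZcG. Summed calls were 232 for pairs against singles (150 in the reported fit), 35 for triplets against pairs (11) and 348 between single ligands (231). It also turned the Cd80 flank peak at 38451851 in PcG to 0.11 (adjusted p = 0.541). DESeq2 called 9 in Z. With only the groups compared, Z had 7 and the ZcG interaction 6. Relative log expression scaling, no filter, the mitochondrial peak kept and peak-wise dispersions left all 28 counts within 1.5 times.

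Leaving out 1 library at a time gave 10 to 16 members in P, 18 to 30 in L, 11 to 17 in H, 26 to 38 in S, 22 to 31 in cG, 5 to 10 in Z, 26 to 32 in PL, 23 to 28 in PH, 20 to 27 in LH, 29 to 39 in PS, 32 to 37 in PcG, 27 to 34 in ScG, 28 to 33 in ZS, 19 to 28 in ZcG, 32 to 37 in PLH, 40 to 44 in PScG and 31 to 37 in ZScG. For interactions it gave 4 to 9 in PL, 2 to 5 in PH, 9 to 15 in LH, 5 to 6 in PS, 2 to 3 in PcG, 18 to 25 in ScG, 6 to 9 in ZS and 6 to 10 in ZcG. Summed calls were 119 to 150, 6 to 11 and 197 to 212 in the same order as above. A lone sample is then assumed to vary like the other groups.

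The replicate numbers did not pair the samples: same-numbered deviations correlated at -0.04 to 0.03 over 153 pairs of groups, 0 of them above 0.1. With the replicate block, counts were 0.957 to 1 times the reported ones. Of 292 called values of the described peaks, 17 lost their call by DESeq2, 3 with relative log expression scaling, 9 with total-count scaling (1 of them the reversal above) and 11 of 291 with only the groups compared. Without 1 library, 236 of 1316 such values lost their call. The causes were not tested. With 2 libraries a group and member peaks of a few CPM, changes of about 1 on the log2 scale could go uncalled. An example was Z at the Cd80 flank peak at 38449668 (log2 1.16). How often this happened was not measured.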
